A study of Mus musculus with 9 samples.

Results

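The transcriptomes of Usp5 knockout and Ythdf1 knockout Hepa 1-6 cells were compared directly with each other, without passing through the control libraries. Hepa 1-6 is a mouse hepatoma line that grows in culture and keeps part of the hepatocyte programme. The comparison covered every gene with at least 10 counts in 3 or more of the 6 knockout libraries, which was 13373 of the 53647 genes in the deposited count table. Each group had 3 libraries of poly(A) RNA, with 28377971, 27253550 and 27781687 counts for the Ythdf1 knockout against 42989715, 29444638 and 25419118 for the Usp5 knockout. The Usp5 knockout cells had been made with a lentiviral CRISPR vector carrying a guide against Usp5, and the Ythdf1 knockout cells with CRISPR/Cas9/EGFP plasmids aimed at Ythdf1. In both cases clones grown from single cells were screened for the lost protein by immunoblot. The labels do not say which clone each library came from, so a difference between the knockouts cannot be told apart from one between clones or between the delivery methods. A further group of 3 control libraries (genotype Control, from the same cell line and medium) was used to place levels, and entered a fit only in 1 alternative.

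USP5 cleaves free polyubiquitin chains, those attached to no protein, into single ubiquitins. This keeps free chains from crowding the proteasome. YTHDF1 is a cytoplasmic protein whose YTH domain binds N6-methyladenosine (m6A) in mRNA and which has been linked to translation and turnover of the bound transcripts. The series was set up around a link between these proteins, with USP5 keeping YTHDF1 from being degraded, and asked which genes respond alike to the loss of either. The direct comparison asks the complementary question of which transcripts differ between the knockouts. All differences below are the Usp5 knockout minus the Ythdf1 knockout, on the log2 scale, so that a positive value means a higher level in the Usp5 knockout. Levels are counts divided by the scaled library size (CPM), on 1 scale shared by all libraries. A gene was called at an adjusted p under 0.05 in edgeR's quasi-likelihood test with Benjamini-Hochberg adjustment over all 13373 genes, and every adjusted p below comes from that test.

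The targeted transcripts were examined first. Usp5 stood at 120.1, 110.3 and 107 CPM in the Usp5 knockout and 231, 196 and 226 CPM in the Ythdf1 knockout, without overlap, a log2 fold change of -0.95 ± 0.088 (SE; adjusted p = 5.64e-05). The control libraries held 228, 218 and 179 CPM, close to the Ythdf1 knockout. Ythdf1 stood at 196, 191 and 203 CPM in the Usp5 knockout and 47.9, 44.6 and 48.4 CPM in the Ythdf1 knockout (2.07 ± 0.073, SE; adjusted p = 3.95e-07), with 185, 176 and 190.3 CPM in the controls. Each transcript was thus low in the libraries labelled as its own knockout and near the control level in the other. Neither transcript was lost from its own knockout. Among the paralogs, Ythdf2, the reader best known for mRNA decay, was lower in the Usp5 knockout by a small margin (50.2, 52.7 and 56.1 against 68, 68.5 and 66.2 CPM; -0.35 ± 0.072, SE; adjusted p = 0.00353). Ythdf3 was called higher in the Usp5 knockout (0.31 ± 0.1, SE; adjusted p = 0.0291), but its difference was -0.04 (adjusted p = 0.555) once each library's smooth trends with GC content and gene length had been removed (the GC and length correction below), and its call was lost without Usp5 knockout replicates 2 or 3 or Ythdf1 knockout replicates 1 or 3 (adjusted p up to 0.129). Usp13, the closest relative of Usp5, had 0 counts in the Usp5 knockout and 3 in the Ythdf1 knockout and was not tested.

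**Figure D1:**
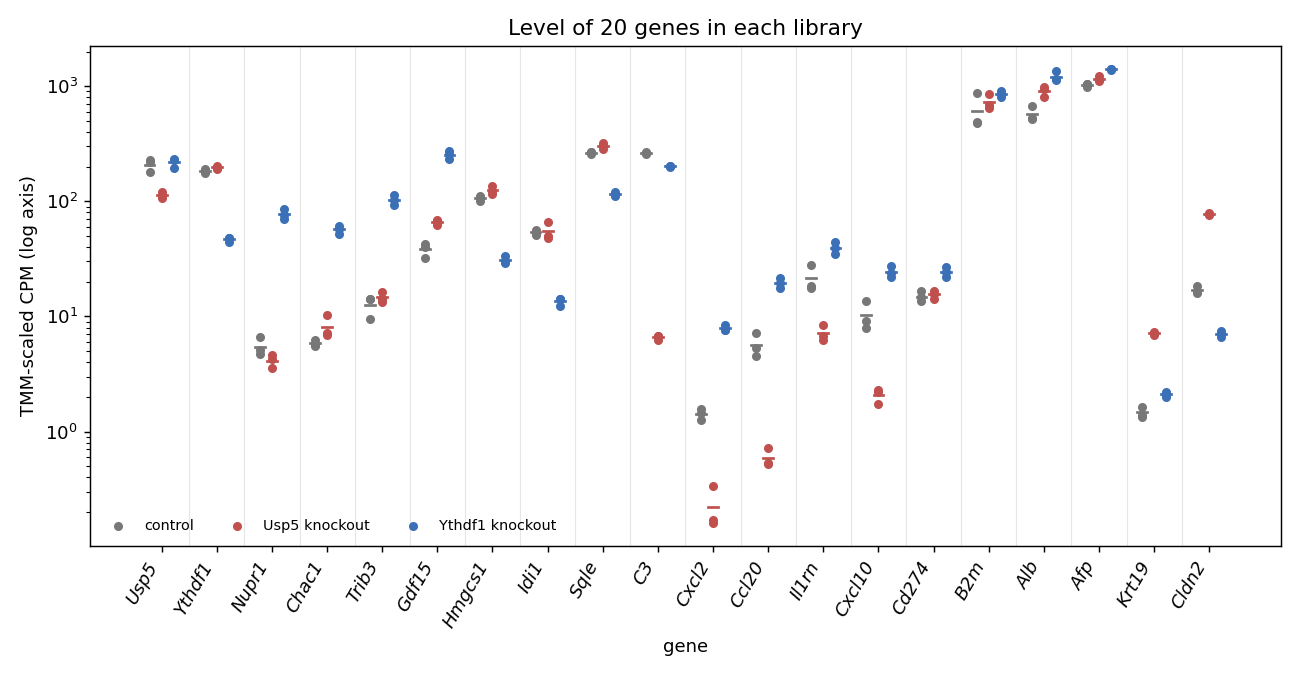
TMM-scaled CPM (log axis) of 20 genes in each of the 9 libraries; points are libraries, short bars are means of 3, and colours give the group. Nupr1, Chac1 and Trib3 are high in all 3 Ythdf1 knockout libraries, Hmgcs1 and Idi1 are low there, and C3 and Cxcl2 are low in all 3 Usp5 knockout libraries.

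The knockouts differed widely. Of the 13373 genes, 7075 (52.9%) were called: 3447 (25.8%) were higher in the Usp5 knockout and 3628 (27.1%) in the Ythdf1 knockout. Most of these differences were small, with a median size of 0.597 on the log2 scale, and 1592 genes (11.9%) also differed at least 2-fold, 711 (5.32%) higher in the Usp5 knockout and 881 (6.59%) in the Ythdf1 knockout. The groups did not overlap for 7988 genes (59.7%). The first principal component carried 77.4% of the variance and separated the groups. Libraries of 1 group correlated at 0.990 to 0.998 (Pearson, log2 CPM across genes), and libraries of different groups at 0.965 to 0.975. The spread of counts between 2 libraries of a group (chi-square per degree of freedom) was 3.53 for Ythdf1 knockout replicates 1 and 3. It was 20.8 to 61.8 for the other pairs. Among fits with 1 library left out, the fewest genes were called without replicate 1 (5172) or replicate 3 (5177) of the Ythdf1 knockout. Mitochondrially encoded transcripts took 3.51% to 6.14% of the counts, with overlapping ranges. Because 25.8% and 27.1% of all genes were called in each direction, the counts for the gene lists below are to be read against those shares.

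**Figure D2:**
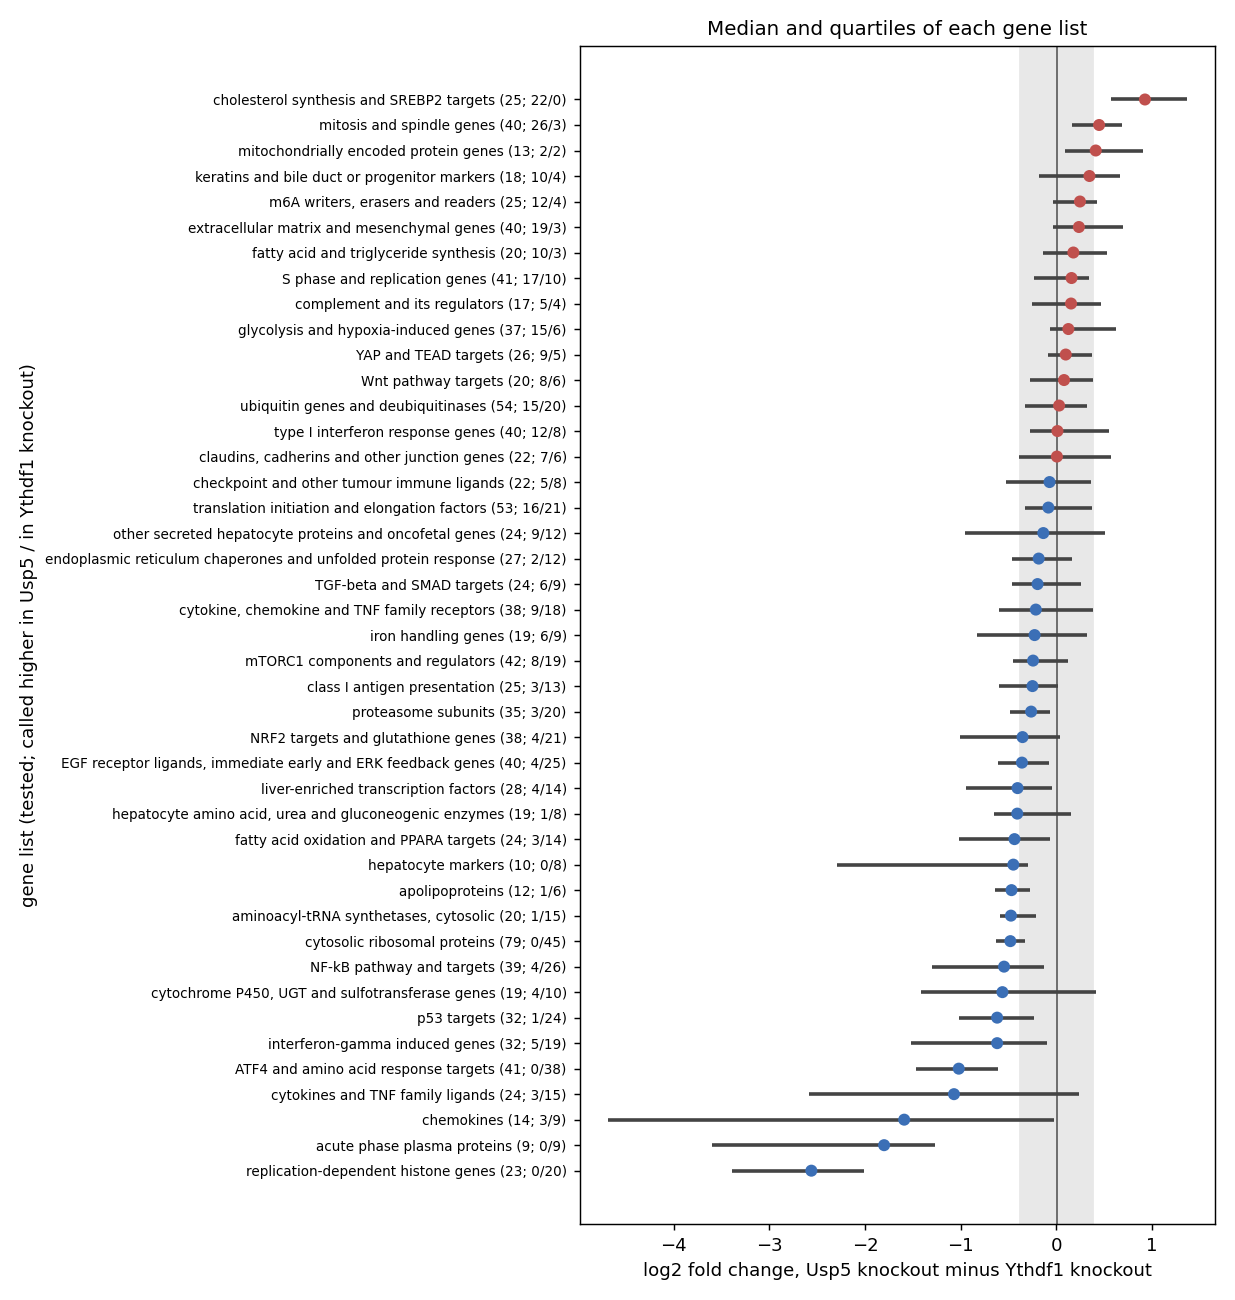
Median (point) and quartiles (bar) of the log2 fold change, Usp5 knockout minus Ythdf1 knockout, for the gene lists with at least 8 tested members; labels give the members tested and those called in each direction. The line and grey band are the median (0.004) and quartiles (-0.38 and 0.38) of all 13373 genes; histone, acute phase, chemokine and ATF4 lists lie far to the left and the cholesterol list to the right.

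Targets of ATF4 and the amino acid response were higher in the Ythdf1 knockout almost without exception. ATF4 is a transcription factor whose translation rises when eIF2-alpha is phosphorylated, and its targets make, import and charge amino acids. Of 41 tested members, 38 were higher in the Ythdf1 knockout, 0 were higher in the Usp5 knockout and 3 were not called, with a median of -1.02 against 0.004 for all genes. Nupr1, a stress-induced chromatin protein, stood at 4.25, 4.58 and 3.56 CPM in the Usp5 knockout and 70.9, 85.8 and 75.9 CPM in the Ythdf1 knockout, with the groups far apart (-4.22 ± 0.12, SE; adjusted p = 1.17e-07). Aldh1l2, an enzyme of mitochondrial folate metabolism, stood at 1.03, 1.3 and 1.09 CPM in the Usp5 knockout and 24.4, 28.3 and 26.9 CPM in the Ythdf1 knockout (-4.54 ± 0.14, SE; adjusted p = 1.34e-07). Atf3, itself a stress-induced transcription factor, stood at 12.8, 12 and 13 CPM in the Usp5 knockout and 106, 105 and 123 CPM in the Ythdf1 knockout (-3.14 ± 0.092, SE; adjusted p = 1.32e-07). For all 3 genes every Ythdf1 knockout library was above every other library, and the controls (5.07, 4.71 and 6.61 CPM for Nupr1 and 18.8, 19.6 and 14.4 for Atf3) lay nearer the Usp5 knockout. For Aldh1l2 the controls, at 2.3, 3.22 and 4.72 CPM, were above the Usp5 knockout and far below the Ythdf1 knockout.

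The same direction was seen across the branches of this response. The stress regulators Ddit3 (CHOP; -2.48 ± 0.1, SE) and Trib3 (-2.81 ± 0.12) were lower in the Usp5 knockout, as were the glutathione-degrading enzyme Chac1 (-2.80 ± 0.15), the cystathionine-cleaving enzyme Cth (-3.09 ± 0.14) and the glycine transporter Slc6a9 (-2.79 ± 0.075). Ddit3 itself was at 11.9, 10.4 and 9.25 CPM in the Usp5 knockout and 58.6, 57.5 and 60.9 CPM in the Ythdf1 knockout. Differences were smaller for the enzymes of serine and asparagine synthesis, with Psph at -1.47, Phgdh at -0.58, Asns at -0.72 and Psat1 at -0.40, all called. Atf4 mRNA differed by -0.43 ± 0.14 (SE; adjusted p = 0.0278), 371, 276 and 259 against 418, 362 and 441 CPM, and its groups overlapped. That call was lost after the GC and length correction (-0.17; adjusted p = 0.186) and without Usp5 knockout replicates 2 or 3 or Ythdf1 knockout replicates 1 or 3 (adjusted p up to 0.0952). The 3 members not called were Slc38a2 (-0.18), Iars (0.06) and Atf5 (0.10, or -0.29, uncalled, without Usp5 knockout replicate 1); Slc38a2, an amino acid transporter, was called after the GC and length correction (-0.51; adjusted p = 0.000104). After that correction 36 members were called, with a median of -0.993.

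The promoters of these genes can be set beside their levels. RefSeq promoter windows (mouse build GRCm38.p6) were found for 35 of the 41 members. The letters TGATGNAA, the core that ATF4 binds with a C/EBP partner, were sought on both strands in the 250 bases before the start, and 12 of the 35 (34.3%) held a match, against 235 of the 9914 tested genes with a window (2.37%). A match is a description of the letters and not a bound site. Windows of 28 bases are shown for 6 members whose differences run from -4.22 to -0.72, 5′ to 3′ on the gene's own strand, with the match in capitals (TTGCATCA and the like are matches on the opposite strand):
Nupr1: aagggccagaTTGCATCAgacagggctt
Atf3: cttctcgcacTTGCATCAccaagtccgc
Chac1: ttccctgccgTTGCATCActcctgccag
Pycr1: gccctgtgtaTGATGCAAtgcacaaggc
Slc7a11: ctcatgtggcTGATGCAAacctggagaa
Asns: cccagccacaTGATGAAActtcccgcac
The windows lie at chr7:126625563-126625590, minus strand (Nupr1), chr1:191183426-191183453, minus strand (Atf3), chr2:119351039-119351066, plus strand (Chac1), chr11:120643834-120643861, minus strand (Pycr1), chr3:50443662-50443689, minus strand (Slc7a11) and chr6:7693215-7693242, minus strand (Asns). Their matches start 110, 110, 193, 103, 66 and 23 bases before the gene start. The letters TTGCATCA stand in the windows of Nupr1 (-4.22), Atf3 (-3.14) and Chac1 (-2.80). They also stand in those of Vldlr (-0.89) and Got1, an aminotransferase (-0.49), where the differences were smaller. Slc7a11, the cystine transporter (-1.02), holds them as a second match on the opposite strand. Read on the other strand the letters are TGATGCAA, found for Pycr1 (-1.34), Jdp2 (-0.85) and Chchd10 (-0.69). This form was thus not confined to large differences.

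Other stress lists leaned the same way, less evenly. Lists can share members, as the ATF4 and p53 lists share sestrin 2, so these counts are not separate from the ATF4 count. Of 20 tested cytosolic aminoacyl-tRNA synthetases, which load tRNAs with amino acids, 15 were higher in the Ythdf1 knockout and 1, Dars, in the Usp5 knockout (median -0.475). Sars stood at 301, 257 and 217 CPM in the Usp5 knockout and 576, 507 and 610.2 CPM in the Ythdf1 knockout (-1.13 ± 0.12, SE; adjusted p = 0.000144) and Yars at 65.5, 59.5 and 68.8 against 131, 125 and 145 CPM (-1.05 ± 0.088, SE; adjusted p = 3.37e-05). Dars was called at 0.23 ± 0.086 (SE; adjusted p = 0.0452) and was at 0.01 (adjusted p = 0.843) after the GC and length correction; it also lost its call without Usp5 knockout replicates 2 or 3 or without Ythdf1 knockout replicates 1 or 3. Of 27 tested genes for folding in the endoplasmic reticulum and its stress response, 12 were higher in the Ythdf1 knockout and 2 in the Usp5 knockout (median -0.185); the count of 2 was 4 without Usp5 knockout replicate 1. Ppp1r15a (GADD34), which directs a phosphatase to eIF2-alpha, stood at 54.9, 47.9 and 38.9 CPM in the Usp5 knockout and 169, 173 and 179 CPM in the Ythdf1 knockout (-1.88 ± 0.12, SE; adjusted p = 7.93e-06). Herpud1, part of endoplasmic reticulum-associated degradation, differed by -1.34, and the chaperone Hspa5 (BiP) by -0.43. The chaperones Hsp90b1 (0.54) and Dnajb11 (0.39), the latter on chromosome 16, were higher in the Usp5 knockout.

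Targets of p53, the stress-activated tumour suppressor, were higher in the Ythdf1 knockout in 24 of 32 tested members and higher in the Usp5 knockout in 1 (2 without Ythdf1 knockout replicate 1), with a median of -0.619. Gadd45a, a growth arrest gene that the ATF4 pathway also induces, stood at 10.0, 8.04 and 6.71 CPM in the Usp5 knockout and 40.9, 43.3 and 42.4 CPM in the Ythdf1 knockout (-2.34 ± 0.13, SE; adjusted p = 4.78e-06). The death-promoting genes Pmaip1 (Noxa; -1.91 ± 0.087, SE) and Bbc3 (Puma; -1.88 ± 0.15) and the cell-cycle inhibitor Cdkn1a (p21; -1.08 ± 0.068) followed, and all of their libraries were separated by group. Cdkn1a stood at 158, 150.0 and 148 CPM in the Usp5 knockout and 321, 318 and 324 CPM in the Ythdf1 knockout. Trp53 mRNA differed by -0.42 and the p53 antagonist Mdm2 by -0.73. Sestrin 1 (Sesn1) was the member called in the other direction (0.50 ± 0.13, SE; adjusted p = 0.0105), whereas sestrin 2, shared with the ATF4 list, was at -1.69 ± 0.068.

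Cholesterol synthesis was the list furthest towards the Usp5 knockout. SREBP2 is the transcription factor that turns on these enzymes when membrane cholesterol is low. Of 25 tested members, 22 were higher in the Usp5 knockout and 0 in the Ythdf1 knockout, with a median of 0.925. Hmgcs1, which makes the HMG-CoA that feeds the pathway, stood at 116, 122 and 135 CPM in the Usp5 knockout and 30.4, 33.3 and 29 CPM in the Ythdf1 knockout (2.01 ± 0.09, SE; adjusted p = 1.42e-06), with 99.9, 109 and 111 CPM in the controls. Idi1, the isopentenyl diphosphate isomerase, stood at 48.2, 49.9 and 66.6 CPM in the Usp5 knockout and 14.2, 14.1 and 12.3 CPM in the Ythdf1 knockout (2.02 ± 0.14, SE; adjusted p = 1.13e-05). Stard4, a sterol carrier, stood at 56.4, 51.5 and 63.3 CPM in the Usp5 knockout and 15.4, 15.8 and 16.1 CPM in the Ythdf1 knockout (1.85 ± 0.093, SE; adjusted p = 2.28e-06). The groups did not overlap for any of these genes, and the controls were nearer the Usp5 knockout.

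The squalene epoxidase Sqle (1.40 ± 0.076, SE), the last-step reductase Dhcr7 (1.64 ± 0.079), the sterol-sensing regulator Insig1 (1.53 ± 0.094) and Srebf2 itself (0.96 ± 0.076) were all higher in the Usp5 knockout. Sqle stood at 283, 307 and 319.6 CPM in the Usp5 knockout and 119, 112 and 114 CPM in the Ythdf1 knockout. The 3 members not called were Mvk (0.04), Tm7sf2 (0.20) and Ebp (0.30). After the GC and length correction 24 of the 25 were called, Mvk (0.43) and Tm7sf2 (0.56) among them, and the median was 1.07. Across the list, the median against the controls was 0.267 in the Usp5 knockout and -0.694 in the Ythdf1 knockout, comparisons that share the same control libraries. The letters TCACNCCAC, one form of the sterol element, were found on either strand in 1 of 17 promoter windows of the list (5.88%), against 122 of 9914 (1.23%). That match is in the Hmgcs1 promoter (chr13:119690204-119690232, plus strand, GRCm38.p6), 137 bases before the start, and is shown with the match in capitals:
Hmgcs1: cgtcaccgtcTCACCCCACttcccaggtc
Of 20 tested genes of fatty acid and triglyceride synthesis, 10 were higher in the Usp5 knockout and 3 in the Ythdf1 knockout (median 0.177). The elongase Elovl6 stood at 42.3, 43.2 and 48.6 CPM in the Usp5 knockout and 11.5, 13 and 11.8 CPM in the Ythdf1 knockout (1.88 ± 0.092, SE; adjusted p = 2.06e-06), and the desaturases Scd2 and Fads2 differed by 1.79 ± 0.081 and 1.15 ± 0.073. Fasn, the fatty acid synthase, was at -0.03 (0.05 after the GC and length correction) and not called in either. The triglyceride-forming enzyme Dgat2 was higher in the Ythdf1 knockout, at 7.08, 6.19 and 5.96 against 16.2, 15.1 and 16.7 CPM (-1.31 ± 0.11, SE; adjusted p = 3.83e-05). Angptl8, a secreted inhibitor of lipoprotein lipase, stood at 4.09, 4.04 and 4.2 CPM in the Usp5 knockout and 54, 52.2 and 60.2 CPM in the Ythdf1 knockout (-3.75 ± 0.095, SE; adjusted p = 6.96e-08).

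**Figure D3:**
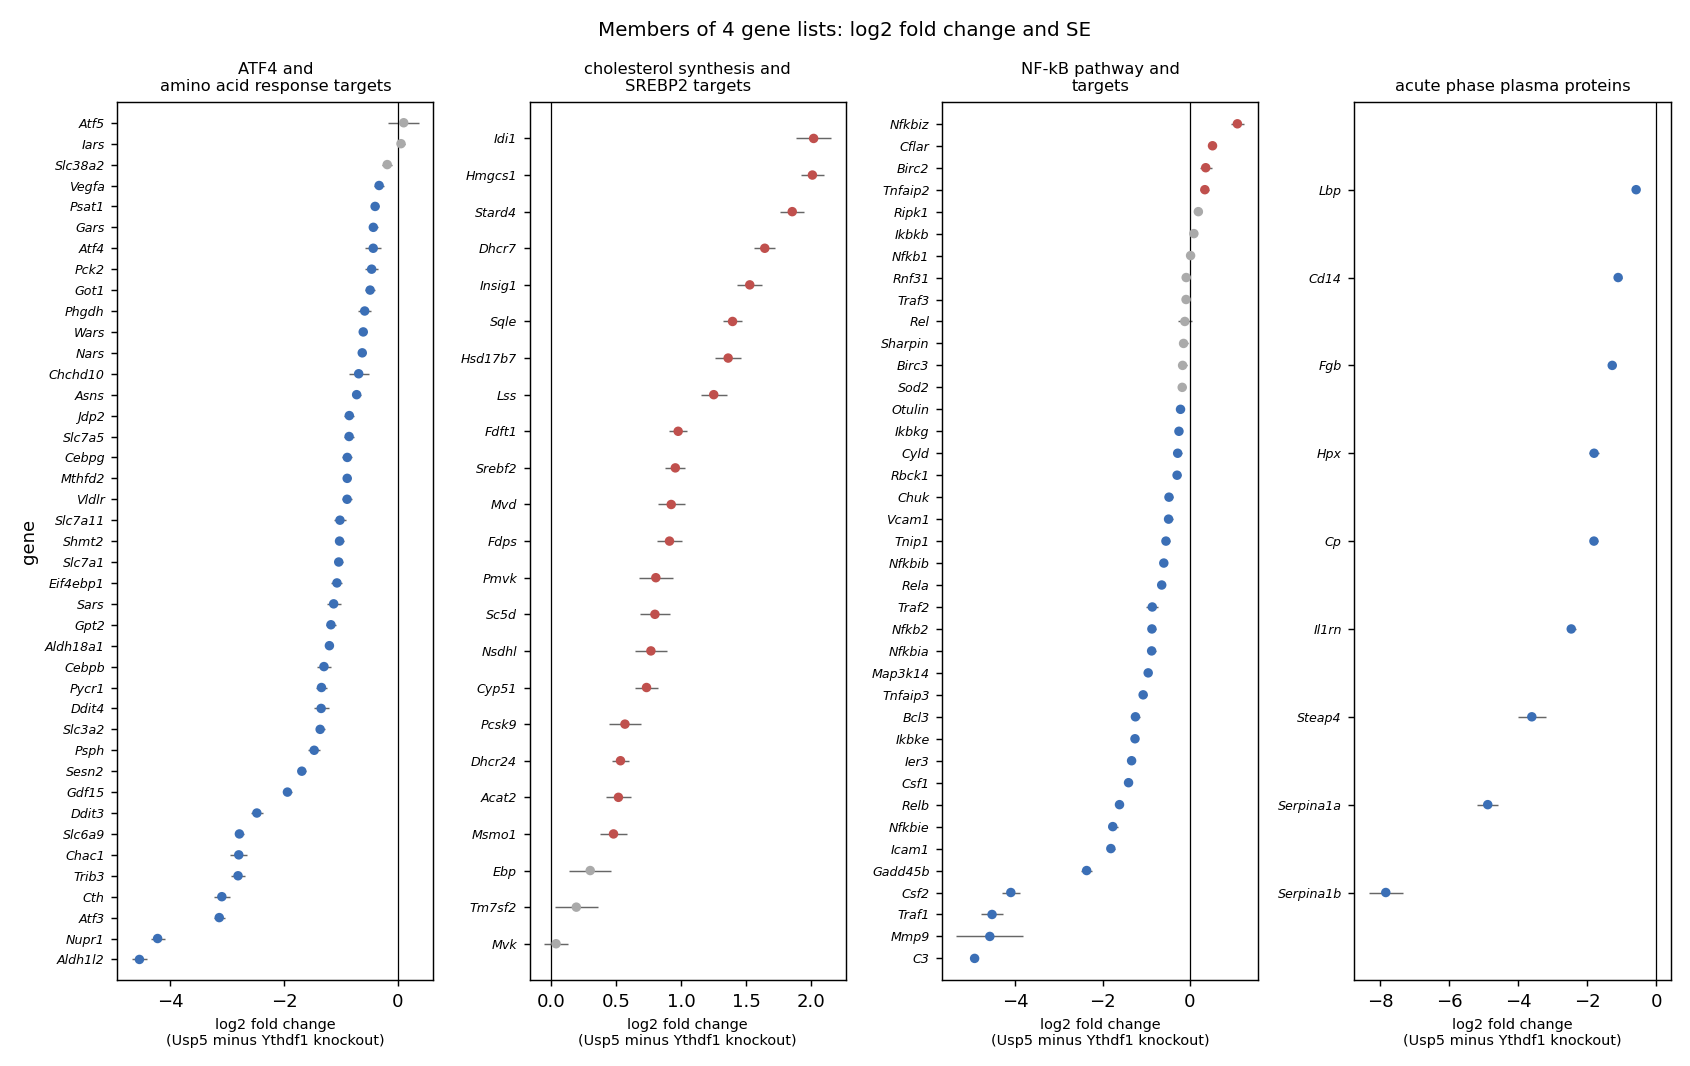
Log2 fold change, Usp5 knockout minus Ythdf1 knockout, with its SE for each tested member of 4 gene lists; red and blue points were called higher in the Usp5 and the Ythdf1 knockout, grey points were not called. Of the ATF4 members 38 of 41 are blue, the called cholesterol members are all red (2 members of this list are not drawn), and all 9 acute phase members are blue.

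Inflammatory genes were low in the Usp5 knockout relative to the Ythdf1 knockout. NF-kB is a family of transcription factors held in the cytoplasm by inhibitors such as IkB-alpha and released by signals that pass through ubiquitin chains. Of 39 tested pathway members and targets, 26 were higher in the Ythdf1 knockout, 4 in the Usp5 knockout and 9 were not called (median -0.547). C3, on which all complement routes converge, stood at 6.71, 6.74 and 6.26 CPM in the Usp5 knockout and 199.8, 202 and 203 CPM in the Ythdf1 knockout (-4.94 ± 0.08, SE; adjusted p = 7.60e-09), with 262, 256 and 266 CPM in the controls. The signalling adaptor Traf1 stood at 0.436, 0.239 and 0.412 CPM in the Usp5 knockout and 9.11, 6.99 and 9.85 CPM in the Ythdf1 knockout (-4.54 ± 0.24, SE; adjusted p = 3.43e-06). The myeloid growth factor Csf2 (GM-CSF) stood at 0.482, 0.616 and 0.45 CPM in the Usp5 knockout and 8.39, 10.7 and 7.69 CPM in the Ythdf1 knockout (-4.10 ± 0.21, SE; adjusted p = 2.54e-06). In these genes all Usp5 knockout libraries were below all others. For the gelatinase gene Mmp9, 3 counts were found in the Usp5 knockout, all in replicate 3, and 68 in the Ythdf1 knockout, a ratio of 27.6 (95% counting interval 9.04 to 137). Mmp9 was thus tested only through the Ythdf1 knockout, where it was higher.

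Inhibitors and alternative-arm subunits of the pathway differed as well. Nfkbie (-1.77 ± 0.12, SE), Relb (-1.61 ± 0.09), Bcl3 (-1.25 ± 0.1), Nfkb2 (-0.87 ± 0.094) and Nfkbia (-0.88 ± 0.089) were lower in the Usp5 knockout. Tnfaip3, which encodes the ubiquitin-editing brake A20, stood at 31.1, 36 and 36.5 CPM in the Usp5 knockout and 69.2, 74.8 and 73.2 CPM in the Ythdf1 knockout (-1.07 ± 0.085, SE; adjusted p = 2.69e-05). The transactivating subunit Rela differed by -0.64 ± 0.075 (SE). Its control libraries held 153, 139 and 198 CPM, near the Usp5 knockout. Nfkb1 was at 0.02 (adjusted p = 0.831) and below 0 after the length and GC corrections, without a call in any of them. Higher in the Usp5 knockout were Nfkbiz (1.09 ± 0.15, SE), which lies on chromosome 16, Cflar (0.52), Birc2 (0.37) and Tnfaip2 (0.35). This count of 4 was 2 when replicate 3 of the Usp5 knockout was left out, and 2 when replicate 3 of the Ythdf1 knockout was. Birc2 lost its call in 4 of the 6 fits with a library left out (adjusted p up to 0.183) and Tnfaip2 in 3 (up to 0.0807). After the GC and length correction Birc2 was at 0.15 and not called (adjusted p = 0.271). The NF-kB consensus was found in 12 of 32 promoter windows of this list (37.5%) and in 1038 of 9914 (10.5%). Windows of 30 bases are shown for 3 called members, with the match in capitals:
Nfkbia: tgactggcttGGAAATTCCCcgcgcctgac
Nfkbie: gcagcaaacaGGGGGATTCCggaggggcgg
Csf1: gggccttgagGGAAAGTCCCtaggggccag
They lie at chr12:55492657-55492686, minus strand (Nfkbia), chr17:45555584-45555613, plus strand (Nfkbie) and chr3:107760604-107760633, minus strand (Csf1) of GRCm38.p6, 29, 106 and 154 bases before the gene start. The 3 genes differed by -0.88, -1.77 and -1.40, and Csf1, the macrophage growth factor, stood at 87.3, 94.5 and 84.1 CPM in the Usp5 knockout and 233, 231 and 239.5 CPM in the Ythdf1 knockout. The consensus also stood in the windows of Tnfaip2, called higher in the Usp5 knockout (0.35). It stood as well in those of Rel (-0.11), Traf3 (-0.086) and Sod2 (-0.17), so it was not confined to large differences or to 1 direction.

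Chemokines, the secreted attractants of leukocytes, held some of the widest gaps. Of 14 tested, 9 were higher in the Ythdf1 knockout and 3 in the Usp5 knockout (median -1.59). Ccl2, the monocyte attractant, had 2 counts over the Usp5 knockout libraries against 643 in the Ythdf1 knockout, a ratio of 391 (95% counting interval 108 to 3234), and 4127 in the controls. The Ythdf1 knockout was thus itself below the controls, at 8.39, 7.7 and 7.47 against 37, 35.5 and 33.7 CPM. The neutrophil attractant Cxcl2 stood at 0.161, 0.171 and 0.337 CPM in the Usp5 knockout and 7.67, 7.66 and 8.35 CPM in the Ythdf1 knockout (-5.18 ± 0.24, SE; adjusted p = 1.67e-06). Ccl2 and Cxcl2, with 2 and 21 counts over the Usp5 knockout, were tested only through the Ythdf1 knockout, where they were higher. Ccl20, the ligand of CCR6, stood at 0.528, 0.718 and 0.524 CPM in the Usp5 knockout and 19.5, 21.8 and 17.6 CPM in the Ythdf1 knockout (-5.06 ± 0.17, SE; adjusted p = 2.96e-07). Cxcl10, the interferon-inducible ligand of CXCR3 on T cells, stood at 1.75, 2.19 and 2.29 CPM in the Usp5 knockout and 22, 27.2 and 23.9 CPM in the Ythdf1 knockout (-3.57 ± 0.15, SE; adjusted p = 9.03e-07), with the controls between them at 9.08, 7.91 and 13.7 CPM. In the other direction, Ppbp differed by 1.31 ± 0.15, Ccl25 by 0.64 ± 0.18 and Cxcl15 by 0.58 ± 0.1. Cxcl15 was above the controls in both knockouts, at 55.4, 59.3 and 72.4 CPM in the Usp5 knockout and 42.1, 43.2 and 39.8 CPM in the Ythdf1 knockout, with 5.72, 6.93 and 9.88 CPM in the controls. The call of Ccl25 was lost without Usp5 knockout replicate 2 or Ythdf1 knockout replicate 1, with an adjusted p up to 0.0624.

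Of 24 tested cytokines and TNF family ligands, 15 were higher in the Ythdf1 knockout and 3 in the Usp5 knockout (median -1.07). With a minimum of 50 counts, which tests fewer genes, the median was -0.655. Lymphotoxin beta (Ltb) stood at 0.23, 0.41 and 0.3 CPM in the Usp5 knockout and 4.9, 4 and 4.03 CPM in the Ythdf1 knockout (-3.80 ± 0.26, SE; adjusted p = 1.11e-05). Interleukin-11 (Il11) was at 0.0919, 0.103 and 0.15 against 1.58, 1.35 and 1.21 CPM (-3.58 ± 0.34, SE; adjusted p = 6.74e-05). Having 11 counts over the Usp5 knockout, Il11 was tested only through the Ythdf1 knockout, where it was higher. The stress cytokine Gdf15, also an ATF4 target, stood at 67.2, 68.6 and 62.3 CPM in the Usp5 knockout and 256, 231 and 273 CPM in the Ythdf1 knockout (-1.94 ± 0.087, SE; adjusted p = 1.42e-06). The alarmin Il33 was higher in the Usp5 knockout, at 40.5, 51.3 and 49.4 CPM in the Usp5 knockout and 17.9, 17.9 and 17.4 CPM in the Ythdf1 knockout (1.41 ± 0.1, SE; adjusted p = 1.57e-05), as were Spp1 (osteopontin; 1.10 ± 0.1) and Kitl (0.70 ± 0.14). Among 38 tested receptors, 18 were higher in the Ythdf1 knockout and 9 in the Usp5 knockout (median -0.215). The death receptor Fas stood at 3.1, 3.11 and 3.15 CPM in the Usp5 knockout and 10.4, 9.76 and 10.9 CPM in the Ythdf1 knockout (-1.73 ± 0.12, SE; adjusted p = 1.19e-05). Il1rap, the shared subunit of interleukin-1 and interleukin-33 receptors, stood at 2.53, 3.56 and 3.15 CPM in the Usp5 knockout and 0.36, 0.523 and 0.586 CPM in the Ythdf1 knockout (2.64 ± 0.26, SE; adjusted p = 8.37e-05). Of the 9 receptors higher in the Usp5 knockout, 3 lie on chromosome 16: Il1rap, Ifnar1 (0.50) and Ifnar2 (0.42), the last 2 named after their values were seen.

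Interferon-related lists were split. Interferon-gamma induced genes were higher in the Ythdf1 knockout in 19 of 32 tested members and in the Usp5 knockout in 5 (median -0.619). The first count was 11 without Ythdf1 knockout replicate 3, and the second was 3 without any 1 of Usp5 knockout replicates 1 and 2 and Ythdf1 knockout replicates 1 and 2 and 2 without Ythdf1 knockout replicate 3. With a minimum of 50 counts, which tests fewer genes, the median of this list was -0.265. Cd74, the invariant chain of class II antigen presentation, stood at 0.0919, 0.0684 and 0 CPM in the Usp5 knockout and 1.77, 1.91 and 1.61 CPM in the Ythdf1 knockout (-4.79 ± 0.47, SE; adjusted p = 7.51e-05), low levels in every library. Cd74 had 6 counts over the Usp5 knockout, so it was tested only through the Ythdf1 knockout, where it was higher. The guanylate-binding protein gene Gbp9 differed by -2.28 ± 0.36, as a member of a family whose copies can share reads. With 21 counts over the Usp5 knockout, Gbp9 too was tested only through the Ythdf1 knockout. Jak2, the kinase of the interferon-gamma receptor, was higher in the Usp5 knockout, at 154, 171 and 194 CPM in the Usp5 knockout and 74.6, 90.0 and 72.7 CPM in the Ythdf1 knockout (1.13 ± 0.11, SE; adjusted p = 8.76e-05). The transcription factor Irf1 (-0.14; adjusted p = 0.255) was not called. After the GC and length correction Irf1 was at 0.12, uncalled, and without Ythdf1 knockout replicate 2 it was called at -0.23 (adjusted p = 0.0476).

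Of 40 tested type I interferon response genes, 12 were higher in the Usp5 knockout and 8 in the Ythdf1 knockout (median 0.0108), shares of the list near those of all genes. Ifitm3, which blocks virus entry, stood at 87.4, 87.9 and 84.7 CPM in the Usp5 knockout and 229, 214 and 222 CPM in the Ythdf1 knockout (-1.35 ± 0.068, SE; adjusted p = 2.28e-06). Parp9, a mono-ADP-ribosyltransferase partner, stood at 6.66, 6.33 and 7.38 CPM in the Usp5 knockout and 1.95, 2.21 and 2.09 CPM in the Ythdf1 knockout (1.70 ± 0.14, SE; adjusted p = 3.56e-05). The GTPase Mx1 was at 1.29, 0.855 and 1.01 against 0.18, 0.337 and 0.11 CPM (2.33 ± 0.41, SE; adjusted p = 0.00151). Mx1 was tested only through the Usp5 knockout, where it was higher. Of the 12, 4 lie on chromosome 16 (Mx1, Parp9, Dtx3l and Parp14), and the median without chromosome 16 was -0.0657.

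Class I antigen presentation displays peptides from inside the cell to CD8 T cells. Of 25 tested genes, 13 were higher in the Ythdf1 knockout and 3 in the Usp5 knockout (median -0.25). After the GC and length correction the counts were 9 and 4, and the count of 3 was 1 without Usp5 knockout replicate 2 or Ythdf1 knockout replicates 1 or 3. The peptide transporter subunit Tap1 stood at 14.4, 12.7 and 13.9 CPM in the Usp5 knockout and 25, 22.4 and 25.5 CPM in the Ythdf1 knockout (-0.83 ± 0.096, SE; adjusted p = 0.000174), the loading factor Tapbp (tapasin) differed by -0.96 ± 0.11, and the immunoproteasome subunit Psmb9 by -1.06 ± 0.23. The heavy chain gene H2-D1 differed by -0.47 ± 0.12 (adjusted p = 0.0107), at 506, 408 and 392 CPM in the Usp5 knockout and 641, 523 and 641 CPM in the Ythdf1 knockout. B2m, the light chain, was at 679.9, 861 and 643 CPM in the Usp5 knockout and 849, 903 and 805 CPM in the Ythdf1 knockout, with overlap (-0.23; adjusted p = 0.124). It was called after the GC and length correction (-0.33; adjusted p = 0.0144) and without Usp5 knockout replicate 2 (adjusted p = 0.0129). H2-K1 had 1 count in the Usp5 knockout and 3 in the Ythdf1 knockout and was not tested.

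Of 22 tested checkpoint and other tumour immune ligands, 8 were higher in the Ythdf1 knockout and 5 in the Usp5 knockout (median -0.0718). The first count was 5 without Ythdf1 knockout replicate 1 and 5 without replicate 2. Cd274 (PD-L1), the ligand that restrains T cells through PD-1, stood at 14.2, 15.8 and 16.5 CPM in the Usp5 knockout and 21.8, 27 and 24.3 CPM in the Ythdf1 knockout (-0.65 ± 0.11, SE; adjusted p = 0.0011), with 13.5, 14.6 and 16.5 CPM in the controls, so the Ythdf1 knockout was the group that stood above the others. Nectin2, a ligand of TIGIT and CD226, stood at 97.2, 102 and 93.1 CPM in the Usp5 knockout and 165, 157 and 175 CPM in the Ythdf1 knockout (-0.77 ± 0.074, SE; adjusted p = 7.09e-05). Cd24a (0.70 ± 0.12, SE) and Nectin3 (0.69 ± 0.11), the latter on chromosome 16, were higher in the Usp5 knockout. Nt5e (CD73), which makes adenosine, was below 1 CPM in all 6 libraries and not called (-0.94; adjusted p = 0.217). Its controls stood at 2.93, 3.08 and 2.99 CPM, so both knockouts were below them. Complement genes went both ways, with 4 of 17 higher in the Ythdf1 knockout and 5 in the Usp5 knockout (median 0.153, which was -0.11 without Usp5 knockout replicate 3). Against C3, factor B (Cfb), which forms the alternative pathway convertase with C3b, stood at 46.9, 43.4 and 44.1 CPM in the Usp5 knockout and 19.3, 16.2 and 18.6 CPM in the Ythdf1 knockout (1.31 ± 0.089, SE; adjusted p = 1.17e-05).

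In each liver list, more genes were called higher in the Ythdf1 knockout than in the Usp5 knockout. Of 28 listed acute phase genes, which hepatocytes make during inflammation, 9 were tested. All 9 were higher in the Ythdf1 knockout, with a median of -1.8. The interleukin-1 receptor antagonist Il1rn stood at 6.78, 8.35 and 6.26 CPM in the Usp5 knockout and 34.6, 43.9 and 39.1 CPM in the Ythdf1 knockout (-2.46 ± 0.13, SE; adjusted p = 3.59e-06). Ceruloplasmin (Cp), the copper-carrying ferroxidase, stood at 4.53, 4.21 and 4.8 against 14.6, 15.9 and 16.7 CPM (-1.80 ± 0.11, SE; adjusted p = 7.93e-06), haem-binding hemopexin (Hpx) differed by -1.80 ± 0.16 and fibrinogen beta (Fgb) by -1.27 ± 0.074. The near-identical antitrypsin genes Serpina1a and Serpina1b were at most 0.112 and 0.0375 CPM in the Usp5 knockout and at least 2.45 and 2.99 CPM in the Ythdf1 knockout, and reads may be split between them. Serpina1b had 1 count against 265, a ratio of 322 (95% counting interval 57.3 to 12770), and 22 counts in the controls. Serpina1a had 8 counts against 204. Both were thus tested only through the Ythdf1 knockout, where they were higher. In bulk RNA, fewer cells of a kind and less RNA per cell cannot be told apart.

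Of 12 tested apolipoproteins, 6 were higher in the Ythdf1 knockout and 1 in the Usp5 knockout (median -0.469). The first count was 3 without Ythdf1 knockout replicate 1 and 2 after the length correction. Apob, the core of very low density lipoprotein, stood at 153, 183 and 200.4 CPM in the Usp5 knockout and 243, 282 and 230.2 CPM in the Ythdf1 knockout (-0.49 ± 0.12, SE; adjusted p = 0.0068). Among 24 other secreted hepatocyte proteins and oncofetal genes, 12 were higher in the Ythdf1 knockout and 9 in the Usp5 knockout (median -0.137). The second count was 5 without Ythdf1 knockout replicate 1. Albumin (Alb) stood at 807, 947 and 984 CPM in the Usp5 knockout and 1156, 1351 and 1124 CPM in the Ythdf1 knockout (-0.41 ± 0.11, SE; adjusted p = 0.0107). Alpha-fetoprotein (Afp) stood at 1111, 1143 and 1236 CPM in the Usp5 knockout and 1383, 1421 and 1403 CPM in the Ythdf1 knockout (-0.27 ± 0.075, SE; adjusted p = 0.0146). The controls were lower than both knockouts for Alb (534, 521 and 673 CPM). The call of Afp was lost without Ythdf1 knockout replicate 1 or 3 (adjusted p up to 0.0539). Glypican 3 (Gpc3), an oncofetal surface proteoglycan, stood at 7.9, 9.13 and 9.7 CPM in the Usp5 knockout and 52.2, 54.1 and 51.8 CPM in the Ythdf1 knockout (-2.57 ± 0.095, SE; adjusted p = 5.08e-07). Igf2 (1.81 ± 0.3, SE) and Fetub (1.02 ± 0.092), the latter on chromosome 16, were higher in the Usp5 knockout.

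Of 28 tested liver-enriched transcription factors, 14 were higher in the Ythdf1 knockout and 4 in the Usp5 knockout (median -0.406). The second count was 2 without Ythdf1 knockout replicate 1 and 2 without replicate 3. Nr5a2 (LRH-1), a regulator of bile acid genes, stood at 2.37, 2.53 and 2.88 CPM in the Usp5 knockout and 7.96, 9.72 and 8.57 CPM in the Ythdf1 knockout (-1.76 ± 0.15, SE; adjusted p = 3.22e-05), and the pioneer factor Foxa1 differed by -1.69 ± 0.17. The stress-responsive factor Cebpb stood at 154, 173 and 128 CPM in the Usp5 knockout and 389.7, 339.6 and 389 CPM in the Ythdf1 knockout (-1.30 ± 0.12, SE; adjusted p = 5.06e-05). Hnf4a, which maintains hepatocyte identity, was not called, at 308, 303 and 292 CPM in the Usp5 knockout and 290.2, 281 and 287 CPM in the Ythdf1 knockout (0.07; adjusted p = 0.389). It was called after the GC and length correction (0.32; adjusted p = 0.00196). The repressor Zbtb20, on chromosome 16, stood at 316, 397 and 361 CPM in the Usp5 knockout and 108, 129 and 97.5 CPM in the Ythdf1 knockout (1.68 ± 0.12, SE; adjusted p = 1.61e-05). Among 19 amino acid, urea and gluconeogenic enzymes, 8 were higher in the Ythdf1 knockout and 1 in the Usp5 knockout (median -0.409); the latter count was 0 without Usp5 knockout replicates 1 or 3 or Ythdf1 knockout replicate 3. Tyrosine aminotransferase (Tat) reached at most 0.0749 CPM in the Usp5 knockout, against 1.48, 1.68 and 1.47 CPM (-4.59 ± 0.36, SE; adjusted p = 2.68e-05). It had 6 counts over the Usp5 knockout and was tested only through the Ythdf1 knockout, where it was higher. Arg2, the mitochondrial arginase, stood at 3.47, 3.28 and 3.71 CPM in the Usp5 knockout and 54.1, 49.7 and 52.2 CPM in the Ythdf1 knockout (-3.90 ± 0.092, SE; adjusted p = 6.54e-08). Of 19 cytochrome P450, UGT and sulfotransferase genes, 10 were higher in the Ythdf1 knockout and 4 in the Usp5 knockout (median -0.564), with Cyp7b1, an oxysterol hydroxylase, at -1.45 ± 0.22 and Cyp2s1 at 0.85 ± 0.084.

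Oxidative metabolism and redox lists leaned to the Ythdf1 knockout as well. Of 24 tested fatty acid oxidation genes and PPARA targets, 14 were higher in the Ythdf1 knockout and 3 in the Usp5 knockout (median -0.438). The pantetheinase Vnn1 stood at 0.942, 1.4 and 0.824 CPM in the Usp5 knockout and 4.43, 5.35 and 4.25 CPM in the Ythdf1 knockout (-2.15 ± 0.23, SE; adjusted p = 0.000114), and Pdk4, which shuts pyruvate out of oxidation, differed by -1.70 ± 0.19. The acyl-CoA thioesterase genes Acot2 (-2.11 ± 0.19, SE) and Acot1 (1.16 ± 0.15), near-identical neighbours that can share reads, went opposite ways. Of 38 NRF2 targets and glutathione genes, 21 were higher in the Ythdf1 knockout and 4 in the Usp5 knockout (median -0.354). Haem oxygenase 1 (Hmox1), which degrades haem, stood at 25, 25 and 25.2 CPM in the Usp5 knockout and 151, 144 and 140.2 CPM in the Ythdf1 knockout (-2.53 ± 0.071, SE; adjusted p = 1.09e-07). The autophagy receptor Sqstm1 (p62), which binds ubiquitin chains, stood at 504.1, 409.7 and 425 CPM in the Usp5 knockout and 1693, 1527 and 1778 CPM in the Ythdf1 knockout (-1.90 ± 0.1, SE; adjusted p = 3.78e-06). Nfe2l2, the gene of NRF2 itself, was at 0.13 (-0.07 after the GC and length correction) and not called in either.

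Iron genes went in both directions. Of 19 tested, 9 were higher in the Ythdf1 knockout and 6 in the Usp5 knockout (median -0.228). The ferritin light chain Ftl1 stood at 775, 708 and 667 CPM in the Usp5 knockout and 1462, 1129 and 1506 CPM in the Ythdf1 knockout (-0.93 ± 0.12, SE; adjusted p = 0.000295). The transferrin receptor Tfrc stood at 159, 161 and 189 CPM in the Usp5 knockout and 79.9, 91.4 and 78 CPM in the Ythdf1 knockout (1.03 ± 0.097, SE; adjusted p = 6.34e-05), the exporter ferroportin (Slc40a1) differed by 1.10 ± 0.088 and the importer Slc39a8 by 1.69 ± 0.097. Tfrc lies on chromosome 16. Among 37 glycolysis and hypoxia-induced genes, 15 were higher in the Usp5 knockout and 6 in the Ythdf1 knockout (median 0.125). Bnip3, a hypoxia-induced mitophagy receptor, stood at 20.9, 19.6 and 24 CPM in the Usp5 knockout and 6.2, 6.47 and 7.29 CPM in the Ythdf1 knockout (1.69 ± 0.12, SE; adjusted p = 1.34e-05). Ndrg1, induced by hypoxia and by stress, stood at 88.6, 91.9 and 91.8 CPM in the Usp5 knockout and 332, 350.0 and 336 CPM in the Ythdf1 knockout (-1.90 ± 0.069, SE; adjusted p = 4.35e-07). The core glycolytic genes Ldha (0.08), Pkm (0.09) and Hk2 (0.10) were not called; after the GC and length correction Ldha (0.25) and Pkm (0.24) were.

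Keratin and bile duct genes were more often called higher in the Usp5 knockout than in the Ythdf1 knockout, and junction genes were divided. Of 18 tested keratins and bile duct or progenitor markers, 10 were higher in the Usp5 knockout and 4 in the Ythdf1 knockout (median 0.345). Keratin 19 (Krt19), typical of bile duct cells, stood at 7.37, 6.91 and 7.19 CPM in the Usp5 knockout and 2.2, 2.13 and 2.01 CPM in the Ythdf1 knockout (1.76 ± 0.13, SE; adjusted p = 2.02e-05). Keratin 18 (Krt18) was called at -0.29 ± 0.074 (adjusted p = 0.00946), at 1277, 1305 and 1229.9 CPM in the Usp5 knockout and 1584, 1478 and 1612 CPM in the Ythdf1 knockout, but was at 0.04 after the GC and length correction, and its call was lost without Ythdf1 knockout replicate 1 or 3 (adjusted p up to 0.0506). Of 22 junction genes, 7 were higher in the Usp5 knockout and 6 in the Ythdf1 knockout (median 0.00527). Claudin 2 (Cldn2), which forms cation pores, stood at 76.1, 79.4 and 77.4 CPM in the Usp5 knockout and 7.13, 6.58 and 7.51 CPM in the Ythdf1 knockout (3.45 ± 0.084, SE; adjusted p = 6.54e-08). Claudin 4 (Cldn4) stood at 91.7, 71.9 and 82.9 CPM in the Usp5 knockout and 477, 429 and 486 CPM in the Ythdf1 knockout (-2.50 ± 0.11, SE; adjusted p = 1.09e-06). The neuronal cadherin Cdh10 stood at 9.85, 12 and 12.4 CPM in the Usp5 knockout and 0.288, 0 and 0.146 CPM in the Ythdf1 knockout (6.24 ± 0.41, SE; adjusted p = 9.28e-06). Cdh10 had 12 counts over the Ythdf1 knockout, so it was tested only through the Usp5 knockout, where it was higher.

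Of 40 tested matrix and mesenchymal genes, 19 were higher in the Usp5 knockout and 3 in the Ythdf1 knockout (median 0.235). Vimentin (Vim), the intermediate filament of mesenchymal cells, stood at 268, 257 and 244 CPM in the Usp5 knockout and 75.4, 68.7 and 74.8 CPM in the Ythdf1 knockout (1.81 ± 0.076, SE; adjusted p = 1.06e-06), with the controls between them at 131, 126 and 113 CPM. Col6a1, a chain of the microfibrillar collagen VI, stood at 25.9, 22.8 and 24.2 CPM in the Usp5 knockout and 1.95, 2.84 and 1.9 CPM in the Ythdf1 knockout (3.45 ± 0.16, SE; adjusted p = 1.64e-06), and the collagen IV chains Col4a1 (1.13) and Col4a2 (1.11) and nidogen 1 (Nid1; 1.21) were also higher. Lamb3, a chain of laminin-332, was at 127, 111 and 118 CPM in the Usp5 knockout and 361, 315 and 368 CPM in the Ythdf1 knockout (-1.55 ± 0.09, SE; adjusted p = 5.00e-06). The factors Zeb1 (0.07), Zeb2 (0.18) and Snai1 (-0.07), which drive epithelial-mesenchymal transition, were not called; Snai1 was called at 0.29 (adjusted p = 0.0357) after the GC and length correction.

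TGF-beta targets (6 higher in the Usp5 knockout and 9 in the Ythdf1 knockout of 24; median -0.197), YAP and TEAD targets (9 and 5 of 26; 0.0975) and Wnt targets (8 and 6 of 20; 0.0798) went in both directions. Bambi, a pseudoreceptor that dampens TGF-beta signals, stood at 0.322, 0.684 and 0.487 CPM in the Usp5 knockout and 6.09, 5.98 and 5.24 CPM in the Ythdf1 knockout (-3.57 ± 0.25, SE; adjusted p = 1.40e-05). Follistatin (Fst), which traps activins, stood at 192, 189 and 217 CPM in the Usp5 knockout and 96.6, 107 and 100.3 CPM in the Ythdf1 knockout (0.98 ± 0.082, SE; adjusted p = 3.58e-05). The YAP targets Ccn1 (0.15) and Ccn2 (0.24) were not called, but both were after the GC and length correction (0.28 and 0.42), with library sizes alone and without Usp5 knockout replicate 3. Ccn2 was also called with RLE scaling (adjusted p = 0.0445) and by DESeq2 (adjusted p = 0.0247). Among the Wnt feedback inhibitors, Nkd1 stood at 694, 716 and 625 CPM in the Usp5 knockout and 351, 344 and 346 CPM in the Ythdf1 knockout (0.97 ± 0.077, SE; adjusted p = 2.69e-05) and Rnf43 differed by 0.83 ± 0.069. The count of Wnt targets higher in the Usp5 knockout was 5 after the length correction.

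Growth signalling was examined because the series links YTHDF1 to mTORC1, the kinase complex that couples amino acids to growth. Of 42 tested mTORC1 components and regulators, 19 were higher in the Ythdf1 knockout and 8 in the Usp5 knockout (median -0.244). The first count was 11 when Usp5 knockout replicate 2 was left out and 12 when Ythdf1 knockout replicate 3 was, and the second was 5 without Ythdf1 knockout replicate 1. The largest differences were in its stress-induced brakes: Sesn2 stood at 46, 48.8 and 47.8 CPM in the Usp5 knockout and 150.5, 151 and 157 CPM in the Ythdf1 knockout (-1.69 ± 0.068, SE; adjusted p = 9.03e-07). Ddit4 (REDD1) stood at 44.3, 34.3 and 34.3 CPM in the Usp5 knockout and 103, 81.6 and 103 CPM in the Ythdf1 knockout (-1.35 ± 0.13, SE; adjusted p = 7.36e-05). Eif4ebp1, the translational repressor that mTORC1 phosphorylates, differed by -1.07 ± 0.098. The inhibitor Deptor stood higher in the Usp5 knockout, at 23.8, 25.8 and 24.8 CPM in the Usp5 knockout and 12.8, 12 and 11.2 CPM in the Ythdf1 knockout (1.05 ± 0.092, SE; adjusted p = 4.45e-05). Mtor itself was at 40.2, 39.7 and 39.1 CPM in the Usp5 knockout and 49.2, 44.5 and 48.7 CPM in the Ythdf1 knockout (-0.26 ± 0.073, SE; adjusted p = 0.0157), a call lost without Usp5 knockout replicate 2 or Ythdf1 knockout replicates 1 or 3 (adjusted p up to 0.0737), and its partner Rptor was at -0.06 and not called.

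Of 40 EGF receptor ligands, immediate early and ERK feedback genes, 25 were higher in the Ythdf1 knockout and 4 in the Usp5 knockout (median -0.36). Amphiregulin (Areg) stood at 93.6, 97.5 and 99.8 CPM in the Usp5 knockout and 205, 227 and 213 CPM in the Ythdf1 knockout (-1.15 ± 0.073, SE; adjusted p = 8.18e-06), with 44.7, 45 and 57.5 CPM in the controls, so both knockouts were above them. Junb differed by -1.25 ± 0.11, Egr1 by -0.94 and Jun by -0.63. The 4 higher in the Usp5 knockout were ERK pathway feedback genes and ETV factors: Spry4 (0.91 ± 0.073, SE), Spred1 (0.79 ± 0.11), Etv5 (0.67 ± 0.074) and Spred2 (0.65 ± 0.067), with Etv5 on chromosome 16.

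Among 25 genes of the m6A machinery, 12 were higher in the Usp5 knockout, Ythdf1 included, and 4 in the Ythdf1 knockout (median 0.246). The first count was 7 without Ythdf1 knockout replicate 1 and 7 without replicate 3, and after the GC and length correction each direction held 8. The reader Igf2bp2, on chromosome 16, stood at 72.2, 87.4 and 71.3 CPM in the Usp5 knockout and 41.7, 48.1 and 43.3 CPM in the Ythdf1 knockout (0.79 ± 0.1, SE; adjusted p = 0.000288). The catalytic writer Mettl3 stood at 23.3, 22.9 and 23.7 CPM in the Usp5 knockout and 30.5, 27.4 and 29.8 CPM in the Ythdf1 knockout (-0.33 ± 0.078, SE; adjusted p = 0.00693), and its partner Mettl14 (0.15) and the eraser Fto (-0.13) were not called, although Fto was after the GC and length correction (-0.24) and Mettl14 without Ythdf1 knockout replicate 2 (0.28). Ubiquitin genes and deubiquitinases went both ways, with 15 of 54 higher in the Usp5 knockout and 20, Usp5 included, in the Ythdf1 knockout (median 0.0282; -0.0931 after the GC and length correction). The second count was 13 without Ythdf1 knockout replicate 3 and 13 with library sizes alone. The ubiquitin fusion gene Rps27a stood at 268, 228 and 227 CPM in the Usp5 knockout and 501, 434 and 510.4 CPM in the Ythdf1 knockout (-0.997 ± 0.098, SE; adjusted p = 7.79e-05), whereas Ubb, which encodes ubiquitin repeats, was at 0.25 and not called. Ubb was called without Usp5 knockout replicate 3 (0.50). Usp16, which deubiquitinates histone H2A, stood at 113, 114 and 123 CPM in the Usp5 knockout and 32.5, 39.96 and 31.2 CPM in the Ythdf1 knockout (1.75 ± 0.1, SE; adjusted p = 5.48e-06); 3 of the 15, Usp16, Usp25 and Usp7, lie on chromosome 16.

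Of 35 tested proteasome subunits, 20 were higher in the Ythdf1 knockout and 3 in the Usp5 knockout (median -0.264; 14 and 4, median -0.155, after the GC and length correction). Psmd8, of the regulatory lid, stood at 285, 263 and 262 CPM in the Usp5 knockout and 516, 498 and 510.0 CPM in the Ythdf1 knockout (-0.91 ± 0.071, SE; adjusted p = 2.44e-05). The base subunit Psmd2, on chromosome 16, stood at 344, 343 and 373 CPM in the Usp5 knockout and 252, 247 and 254 CPM in the Ythdf1 knockout (0.50 ± 0.07, SE; adjusted p = 0.000502). Translation factors were divided, with 21 of 53 higher in the Ythdf1 knockout and 16 in the Usp5 knockout (median -0.084, or 0.0185 after the GC and length correction and 0.0324 after the length correction). The count of 21 was 11 at an adjusted p under 0.01. Eif1 differed by -0.84 ± 0.13 and Eif6 by -0.91 ± 0.11, while the scaffold Eif4g1, on chromosome 16, differed by 0.68 ± 0.068 and Eif4b by 0.79 ± 0.074. Ribosomal protein genes, which are short, were higher in the Ythdf1 knockout in 45 of 79 and higher in the Usp5 knockout in 0 (median -0.481). Without Usp5 knockout replicate 1 the count of 45 was 68, without Usp5 knockout replicate 3 the count of 0 was 3, and after the GC and length correction the median was -0.32 with 42 called. Rps14 stood at 828, 670.1 and 711 CPM in the Usp5 knockout and 1717, 1238 and 1769.8 CPM in the Ythdf1 knockout (-1.10 ± 0.14, SE; adjusted p = 0.00033), and the controls, at 1294, 1249.9 and 656 CPM, overlapped both knockouts.

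Many cell cycle genes were higher in the Usp5 knockout. Of 40 tested mitosis and spindle genes, 26 were higher in the Usp5 knockout and 3 in the Ythdf1 knockout (median 0.446; 23 and 2, median 0.325, after the GC and length correction). The count of 3 was 1 without Usp5 knockout replicates 2 or 3 and 0 without Ythdf1 knockout replicates 1 or 3. The kinesin Kif23, needed to complete cytokinesis, stood at 92.4, 100.2 and 96.7 CPM in the Usp5 knockout and 43.2, 45.6 and 45.3 CPM in the Ythdf1 knockout (1.11 ± 0.071, SE; adjusted p = 8.42e-06). The spindle checkpoint kinase Bub1 differed by 1.09 ± 0.13, the topoisomerase Top2a by 0.90 ± 0.085 and the proliferation marker Mki67 by 0.89 ± 0.11. Top2a stood at 395, 408 and 426 CPM in the Usp5 knockout and 216, 241 and 201 CPM in the Ythdf1 knockout, with 404, 448 and 465 CPM in the controls, so that the Ythdf1 knockout was the low group. The mitotic kinase Cdk1 (-0.03) and cyclin B1 (Ccnb1; 0.20) were not called; Ccnb1 was without Usp5 knockout replicate 1 (0.27). Of 41 S phase and replication genes, 17 were higher in the Usp5 knockout and 10 in the Ythdf1 knockout (median 0.158), and the latter count was 6 without Ythdf1 knockout replicate 1, 6 without replicate 3 and 6 with library sizes alone. The 3 largest called members with a positive difference, the replication factors Cdc45 (0.89 ± 0.076, SE), Mcm4 (0.83 ± 0.076) and Chaf1b (0.75 ± 0.068), all lie on chromosome 16. E2f2, a cell cycle transcription factor, stood at 3.4, 3.22 and 2.88 CPM in the Usp5 knockout and 12.3, 11.7 and 11.5 CPM in the Ythdf1 knockout (-1.90 ± 0.12, SE; adjusted p = 8.18e-06).

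Replication-dependent histone genes had the lowest median of any list, -2.56. Their mRNAs normally end in a stem-loop without a poly(A) tail, so poly(A) libraries catch only the tailed minority, and their near-identical coding sequences can share reads. Of 23 tested, 20 were higher in the Ythdf1 knockout and 0 in the Usp5 knockout; with a minimum of 50 counts, which leaves fewer genes tested, 11 were called. Summed over the list, the libraries held 30.7, 28.7 and 30.3 CPM in the Usp5 knockout, 165, 160 and 182 CPM in the Ythdf1 knockout and 67.7, 64.5 and 57.9 CPM in the controls. The linker histone H1f2 stood at 7.14, 5.81 and 7.53 CPM in the Usp5 knockout and 38, 34.1 and 45.4 CPM in the Ythdf1 knockout (-2.52 ± 0.14, SE; adjusted p = 3.78e-06) and H3c15 at 0.413, 0.992 and 1.35 against 11.8, 10.3 and 14.3 CPM (-3.80 ± 0.33, SE; adjusted p = 4.08e-05). H2ac19 varied widely within the Usp5 knockout, at 0, 2.57 and 1.31 CPM. Whether the tailed share of these mRNAs or their total level differed was not tested.

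Outside the lists, the largest differences towards the Usp5 knockout were in genes that were mostly low in the Ythdf1 knockout. Cand2, a regulator of cullin ubiquitin ligases, stood at 8.04, 7.73 and 7.23 CPM in the Usp5 knockout and 0.18, 0.374 and 0.22 CPM in the Ythdf1 knockout (4.88 ± 0.23, SE; adjusted p = 1.78e-06). It had 21 counts over the Ythdf1 knockout, so it was tested only through the Usp5 knockout, where it was higher. The X-linked actin-binding gene Shroom4 stood at 18.7, 20.7 and 22.3 CPM in the Usp5 knockout and 0.612, 0.86 and 0.769 CPM in the Ythdf1 knockout (4.77 ± 0.16, SE; adjusted p = 2.91e-07). The B lineage transcription factor Pax5 stood at 20.2, 31.6 and 19.4 CPM in the Usp5 knockout and 1.12, 1.42 and 0.916 CPM in the Ythdf1 knockout (4.36 ± 0.25, SE; adjusted p = 4.83e-06). In all 3 the control mean was nearer the Usp5 knockout, with 24, 23.7 and 34.3 CPM for Pax5. The fibrillin Fbn2 (3.25 ± 0.13, SE), the desmosomal plakophilin Pkp1 (2.45 ± 0.13) and the myosin light chain kinase Mylk (2.38 ± 0.11, on chromosome 16) showed another pattern, with the Usp5 knockout above the controls and the Ythdf1 knockout below them; Fbn2 stood at 26.2, 23 and 26, 9.76, 9.42 and 7.79 and 2.77, 2.21 and 2.89 CPM in these 3 groups. Also among the 15 largest were Pnma5 (3.68), Acat3 (3.48), Eml1 (2.63), Grhl2 (2.55), Krt33b (2.36) and the Cdh10, Cldn2 and Col6a1 already given.

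The largest differences towards the Ythdf1 knockout included genes with few or no counts in the Usp5 knockout. Repin1, a zinc finger gene on chromosome 6, had 0 counts in all 3 Usp5 knockout libraries against 834 in the Ythdf1 knockout and 978 in the controls. Taking 3 counts over the group as the floor, it was at least 338-fold lower. Its next expressed neighbour, the zinc finger gene Zfp775, likewise had 0 counts against 243 and 129, at least 98.5-fold lower. The neighbours on either side were present in the Usp5 knockout: Lrrc61 had 307 counts and Rarres2 had 25, and on the other side Gimap8 had 197 and Gimap9 had 1368. Gimap8 and these neighbours were chosen by position after Repin1 had been seen. The gap thus spanned 2 adjacent genes and was not found in the Ythdf1 knockout or control libraries. Slc16a7, a monocarboxylate transporter, had 0 counts in the Usp5 knockout and 0 in the controls against 314 in the Ythdf1 knockout, at least 127-fold higher there.

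The calcium-binding protein S100a16 stood at 0.919, 0.923 and 0.787 CPM in the Usp5 knockout and 31.8, 31.5 and 32.5 CPM in the Ythdf1 knockout (-5.17 ± 0.12, SE; adjusted p = 6.54e-08). Pdzrn3, a ubiquitin ligase, stood at 0.368, 0.479 and 0.187 CPM in the Usp5 knockout and 5.69, 6.13 and 5.79 CPM in the Ythdf1 knockout (-4.05 ± 0.25, SE; adjusted p = 7.69e-06). For both, the mean of the controls lay between the knockouts, at 22.8 and 2.27 CPM. In all, 43 called genes had at most 3 counts over 1 group, 37 of them in the Usp5 knockout and 6 in the Ythdf1 knockout. Of these, 12 and 1 had 0 counts. A gene this low in 1 group passed the minimum only through the other group, which left little room for it not to be called. The number of tested genes this low is not given here, so 37 against 6 is no test of a difference between the knockouts. Among the 6, Clmn had 63 counts in the Usp5 knockout against 2 in the Ythdf1 knockout, a ratio of 25.9 (95% counting interval 6.88 to 219.)

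Position in the genome and sequence composition moved with the comparison. On chromosome 16, 255 of 400 tested genes (63.7%) were higher in the Usp5 knockout and 19 (4.75%) in the Ythdf1 knockout, against 25.8% and 27.1% of all genes. Their median log2 fold change was 0.514, a 1.43-fold difference, with quartiles of 0.194 and 0.848, and 341 of the 400 (85.2%) were above 0. No other autosome had a median beyond 0.11 in size, and that of the X chromosome was 0.175. The excess ran along the whole chromosome: all 36 overlapping windows of 50 neighbouring tested genes had medians above 0, from 0.276 to 0.711, against a median window of -0.00757 genome-wide. Against the controls, the median of chromosome 16 genes was 0.27 in the Usp5 knockout and -0.127 in the Ythdf1 knockout, comparisons that share their controls. After the GC and length correction the chromosome's median was 0.457. Zbtb20, Tfrc, Usp16, Eif4g1, Mcm4 and Il1rap are among the genes of this chromosome described above, and the part of the chromosome-wide difference in their values was not tested.

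**Figure D4:**
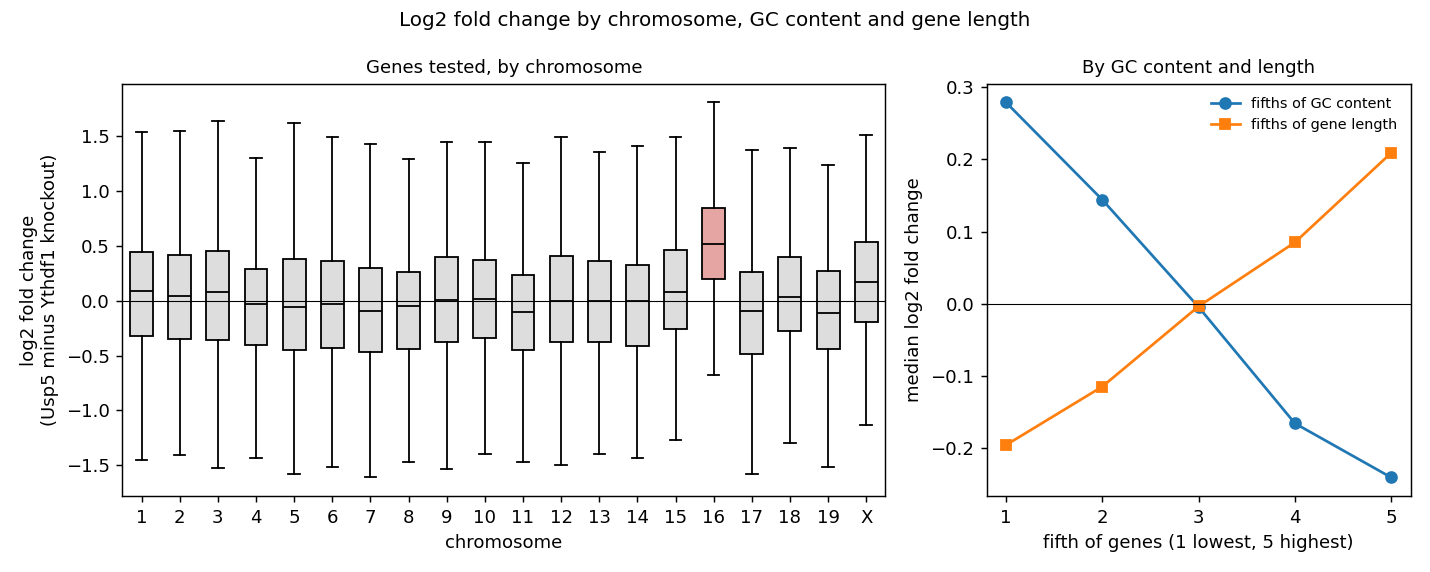
Left, log2 fold change (Usp5 minus Ythdf1 knockout) of the tested genes by chromosome, with boxes for quartiles, lines for medians and whiskers to 1.5 times the box; chromosome 16 is coloured. Right, median log2 fold change in 5 equal bins of genes ordered by GC content (circles) or by length (squares); it falls from 0.279 to -0.241 with GC content and rises from -0.196 to 0.209 with length.

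On chromosome 13 a window of 50 genes from Zkscan3 to Exoc2 had a median of -0.702. It holds 20 histone genes with a median of -2.54, and the other 30 genes had a median of -0.0372. Across all genes, those poor in GC were higher in the Usp5 knockout and those rich in GC in the Ythdf1 knockout. When genes were cut into 5 equal bins by GC content, 39.0% of genes in the lowest bin were higher in the Usp5 knockout and 11.7% in the Ythdf1 knockout (median 0.279). In the highest bin these shares were 11.9% and 41.5% (median -0.241). By gene length, medians rose from -0.196 in the shortest bin to 0.209 in the longest. After the GC and length correction 7067 genes were called, of which 5591 were among the 7075 with the same direction. Of the 1592 genes that differed 2-fold, 1549 (97.3%) kept their call and direction, and of the 5483 smaller differences 4042 (73.7%) did.

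The control libraries were used to place the levels. Of the 3447 genes higher in the Usp5 knockout, 2408 (69.9%) had a control mean nearer to the Usp5 knockout, and of the 3628 higher in the Ythdf1 knockout, 2718 (74.9%) did so as well, against 65.0% of all tested genes. Among the genes that also differed 2-fold these shares were 63.9% and 65.4%. For the gene lists, the median against control was 0.101 in the Usp5 knockout and 1.12 in the Ythdf1 knockout for ATF4 targets, and -0.611 and 0.0258 for NF-kB genes. For chemokines these medians were -0.888 and 0.444, and for acute phase genes -0.241 and 1.31. Both medians of a list rest on the same control libraries. Marker lists of other cell types were summed as well, and their part in the differences was not tested. Summed leukocyte markers reached 10.2 to 11.6 CPM in the Usp5 knockout and 15.1 to 16.9 CPM in the Ythdf1 knockout, with Cd3e, Nkg7 and Tyrobp at 0 counts in all 6. Summed endothelial markers were at 3.35 to 3.70 and 8.52 to 12.3 CPM, mostly from Stab1, with Lyve1 and Emcn at 0. Stellate cell and fibroblast markers were not low: they summed to 1070 to 1380 and 1040 to 1270 CPM, almost all of it from decorin (Dcn), with Lrat at 0. Bile duct markers summed to 692 to 809 CPM in the Usp5 knockout and 403 to 444 CPM in the Ythdf1 knockout, without overlap. Hepatocyte markers summed to 2970 to 3330 and 3860 to 4100 CPM, also without overlap, and to 2540 to 2570 CPM in the controls.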

How the data were processed

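Poly(A) RNA of Hepa 1-6 cells was sequenced in 9 libraries. Per the submitters' processing notes the tools were fastp 0.23.2, STAR 2.7.10a and Salmon 1.9.0 with GRCm39; strand and annotation release are not given in the sources used here. The authors deposited estimated counts per gene as whole numbers, used here as deposited. The 6 knockout libraries were fitted with edgeR 4.0.16 (quasi-likelihood test, TMM scaling, R 4.3.3) after a minimum of 10 counts in 3 libraries, and log2 fold changes were computed from the deposited counts. A gene low in 1 group could pass this minimum through the other group alone. Whether the 3 libraries of a group were separate cultures is not labelled; each p-value therefore reflects library-to-library spread alone, possibly technical. Control libraries were used for levels, and in a fit only in the alternative with all 9 libraries. Intervals and floors cover counting error only.

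Members and the 46 gene lists were chosen with earlier results of these data known. Genes were named by a rule: both targets and their paralogs, a set of 17 immune, stress and liver genes, the 15 largest protein-coding differences per direction at 5 CPM or more, and up to 3 members per list and direction at 1 CPM or more, the last 2 kinds called and without overlap. Other list members and neighbours were named after their values were seen. GC content, chromosome and order came from GENCODE vM21 (GRCm38), and promoters from RefSeq (GRCm38.p6), another build than the authors'. Alternatives were other scalings, filters, tools (DESeq2 1.42.0, limma-voom 3.58.1), length and GC offsets, a replicate block, all 9 libraries and leaving out each library. On simulated data of 13177 genes, with 100 genes changed 2-fold and 100 changed 1.5-fold, the test recovered 77% and 47% of them. It also called 13 unchanged genes. Far fewer genes changed there than were called in the data, so these shares do not carry over to the data. Some genes that the rule or the lists name are not reported here.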

Additional observations from a re-analysis of the deposited data

How the results depend on the processing

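The count of 7075 called genes lay between 6409 and 7429 over the other scalings, filters, tools, offsets and fits, and between 5172 and 7042 when 1 library was left out (lowest without Ythdf1 knockout replicate 1, and 5177 without replicate 3). Left-out ranges were 2479 to 3391 for genes higher in the Usp5 knockout and 2680 to 3651 for the Ythdf1 knockout, and at 2-fold 1281 to 1580 in all, 548 to 794 and 690 to 943. With a minimum of 50 counts, which tests fewer genes, 979 genes passed at 2-fold, 426 higher in the Usp5 knockout and 553 in the Ythdf1 knockout. At an adjusted p under 0.01, 4804 genes were called, 2275 of them higher in the Usp5 knockout. Library sizes alone moved the median of all genes by 0.0542 and the share of calls higher in the Usp5 knockout from 48.7% to 55%. The replicate numbers did not pair the samples (correlations of deviations of same-numbered libraries 0.322, 0.227 and -0.123); with a replicate block 7238 genes were called. With the block B2m (-0.24; adjusted p = 0.0364) and Ccn2 (0.23; adjusted p = 0.0499) were called too, and with the block and the GC and length offset Sesn1 was not (0.32; adjusted p = 0.0545), all by edgeR. Signs that turned, with the cause not tested, were these. With the length offset: Nfkb1 -0.060, Cdk1 0.17, Hk2 -0.080, Iars -0.07, Snai1 0.062 and Zeb1 -0.12. With the GC and length offset, without and with the replicate block: Nfkb1 -0.015 and -0.015, Irf1 0.12 and 0.12, Krt18 0.039 and 0.038, Ythdf3 -0.042 and -0.041, Cdk1 0.081 and 0.082, Fasn 0.047 and 0.048, Iars -0.078 and -0.079, Nfe2l2 -0.069 and -0.069, Snai1 0.29 and 0.29, and Zeb1 -0.21 and -0.20; Hk2 was at -0.00033 with the block. With library sizes alone: Cdk1 0.019 and Fasn 0.020. Over the fits with a library left out, Atf5 lay between -0.29 and 0.37, Cdk1 between -0.13 and 0.030, Mvk between -0.023 and 0.080, Pkm between -0.025 and 0.16, Snai1 between -0.14 and 0.011, and Zeb1 between -0.020 and 0.22. The turned values were Atf5 -0.29 and Pkm -0.025 (Usp5 knockout replicate 1), Cdk1 0.030 and Snai1 0.011 (Usp5 knockout replicate 3), Cdk1 0.013 and Zeb1 -0.0054 (Ythdf1 knockout replicate 1), Mvk -0.023 (replicate 2) and Zeb1 -0.020 (replicate 3).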
